A study of Brassica napus with 6 samples.

Results

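The copper miRNAs are small RNAs of the families miR397, miR398, miR408 and miR857. All listed miRNAs with 1 of these family numbers were taken from the known miRNA lists of the small RNA libraries, together with every cleavage record under these numbers in the degradome libraries. Of 401 listed miRNAs, 74 known and 327 predicted, 5 belong here: bna-miR397ab, bna-miR398a, bna-miR398b, bna-miR408a and bna-miR408b. No row belonged to miR857. Of the degradome records, 5 of 554 in the rod-like library and 0 of 535 in the normal library were under these family numbers.

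The samples were shoot apices of Brassica napus (oilseed rape), from rod-like and from normal plants raised in 1 field and cut at early bolting, at 3 months of age. The labels do not describe the rod-like form, name no strain and mention no copper treatment. Each RNA sample pooled the apices of 6 plants. Small RNA libraries were listed as 2 samples of rod-like and 2 of normal plants, and 1 degradome library of each, in which the 5′ ends of cut transcripts are sequenced.

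In Arabidopsis, miR397, miR398, miR408 and miR857 accumulate when copper is scarce, under the transcription factor SPL7. They direct the cutting of transcripts that code for copper proteins: laccases, which polymerise lignin, for miR397 and miR857; copper/zinc superoxide dismutases and their copper chaperone for miR398; and plantacyanin and laccases for miR408. The loss of these proteins is thought to spare copper for plastocyanin of the photosynthetic chain. No copper level or target abundance was measured in the files used here.

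The degradome records print the small RNA beside its site, which shows the strand that was aligned with the transcript in each record. The sequences of both copper miRNAs that had records are given 5′ to 3′, with the seed (bases 2 to 8) in capitals.
bna-miR397a: tCATTGAGtgcagcgttgatgt
bol-miR398a-5p: gGAGTGTCatgagaacacgga
The miR397a sequence is 22 nt long and the miR398a-5p sequence 21 nt. Their seeds differ from each other, and none of the other 215 miRNA names in the degradome records shares either seed. The prefix bol marks a name from Brassica oleracea, and 5p marks the 5′ arm of the hairpin. The miR398 strand known to guide cutting of superoxide dismutase transcripts in Arabidopsis comes from the 3′ arm, so the recorded strand is its partner. The small RNA lists name bna-miR398a and bna-miR398b without an arm and bna-miR397ab as a joint entry, and they hold no sequences. Counts and cleavage records were therefore not joined by name.

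The sites recorded for these sequences follow, 5′ to 3′, read from the deposited alignments with gaps removed. Capitals mark the bases opposite positions 10 and 11 of the small RNA, the pair between which Argonaute proteins usually cut.
BnaA10g25170D, with bna-miR397a: ccatcaaactctGCacttgatga
BnaA04g26250D, with bol-miR398a-5p: tccgtgttctCAtgaactac
BnaC04g50250D, with bol-miR398a-5p: tccgtgttctCAtgaactac
BnaC09g49660D, with bol-miR398a-5p: tttgtgatctCAtggctcttc
BnaC09g42460D, with bol-miR398a-5p: tctggggtctCAtgactctca
Every one of the 5 sites was paired at positions 10 and 11. Of the 5 transcript names, 1 was found in the RefSeq gene table of assembly Da-Ae, as a protein-coding gene with no descriptive symbol, so no gene names are given.

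Within a plant type, the 2 small RNA files differed by less than the sampling noise allows to see. Chi-square per degree of freedom, over miRNAs that reached 10 counts in sum, was 1.05 for the rod-like files (p = 0.246) and 0.885 for the normal files (p = 0.952), but 116 and 118 when files of different plant types were compared. They were counted as 1 sample, so that each plant type has n = 1 and the differences have no replicate check. Tests on these reads compare the libraries, not the plant types. Listed miRNA reads summed to 712169 and 713637 in the rod-like files and 625795 and 629101 in the normal files. Values are given as reads per 1000000 listed miRNA reads (RPM) after scaling by edgeR's TMM factors. Each ratio has a 95% conditional interval for its counting error alone, computed from the mean counts per file. The intervals thus reflect the mean depth of a file and are wider than summed reads would give. Of the families known to act in the shoot apex, miR164, miR166, miR171 and miR394 were present in every file, at 277 RPM or more in rod-like files and 196 RPM or more in normal files, and miR165 was not listed.

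The copper miRNAs parted into a group that differed between the libraries of the plant types and a group that did not differ detectably. Both miR408 members stood higher in the rod-like libraries, bna-miR408a 8.96-fold and bna-miR408b 20.8-fold. The miR397 and miR398 members had ratios between 1.08 and 1.22, with intervals that all included 1. Summed over the 5 members, the reads came to 1346 and 1303 RPM in the rod-like files, against 237 and 224 RPM in the normal files, a ratio of 5.75 (4.83 to 6.89). They made up 0.132% and 0.127% of listed reads in rod-like files and 0.0240% and 0.0232% in normal files.

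**Figure D1:**
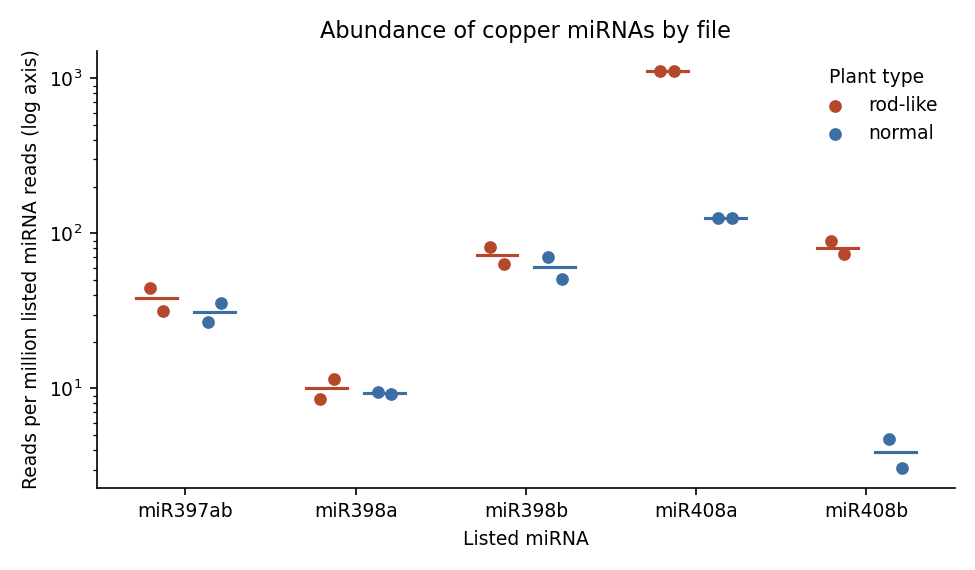
Abundance of the 5 listed copper miRNAs in each small RNA file, in RPM on a log axis. Points are files and short lines the scaled mean of a plant type; the miR408 points of the rod-like files lie far above those of the normal files, at 1123 RPM against 125 RPM on average for miR408a, while the miR397 and miR398 points lie close together.

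Of the miR408 forms, which in Arabidopsis guide the cutting of plantacyanin and laccase transcripts, bna-miR408a was by far the more abundant. It had 783 and 781 counts in the rod-like files and 79 and 82 counts in the normal files. The files of a plant type were nearly equal and the plant types did not overlap, as was the case, with rod-like files above normal files, for 30.7% of the miRNAs tested below. Scaled, this was 1123 RPM in both rod-like files, against 125 and 126 RPM in the normal files, a ratio of 8.96 (7.12 to 11.4). Among the 74 known miRNAs, bna-miR408a ranked 26 by abundance in rod-like and 45 in normal apices.

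The second form, bna-miR408b, had 62 and 51 counts in the rod-like files and 3 and 2 counts in the normal files. It came to 88.9 and 73.3 RPM in the rod-like files, against 4.73 and 3.07 RPM in the normal files. The ratio was 20.8, with a wide interval of 6.20 to 129, since normal apices gave a mean of 2.5 counts per file. Its rank among known miRNAs was 50 in rod-like and 73 in normal apices, where only 1 known miRNA was scarcer.

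The balance between the miR408 forms could not be told apart between the plant types at the mean depth of a file. The share of bna-miR408a in miR408 reads was 93.3% (Clopper-Pearson 95% interval on mean counts, 91.3 to 94.9) in rod-like and 97.0% (90.7 to 99.5) in normal apices. By file the share was 92.7% and 93.9% in rod-like and 96.3% and 97.6% in normal plants. Fisher's exact test, two-sided, did not separate the changes of bna-miR408a and bna-miR408b (adjusted p = 0.504, with an interval for the ratio of their ratios of 0.0996 to 1.62). For the test the mean of 2.5 counts was rounded to 3. How reads that match both forms were assigned is not described. The sum over both forms does not depend on how such reads were split, provided that each was counted once. Summed, the miR408 family had 1211 and 1197 RPM in rod-like files and 129 RPM in each normal file, a ratio of 9.32 (7.43 to 11.8).

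For bna-miR397ab, of the family that restrains laccases, 31 and 22 counts were listed in the rod-like files and 17 and 23 counts in the normal files. The ranges overlapped. The values were 44.4 and 31.6 RPM in rod-like files, against 26.8 and 35.4 RPM in normal files, a ratio of 1.22 (0.658 to 2.30). At the mean depth of a file, an increase up to 2.30-fold or a decrease to 0.658 of the normal level lies within counting error.

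Of the miR398 forms, whose 3′ strand guides cutting of superoxide dismutase transcripts in Arabidopsis, bna-miR398b had 57 and 44 counts in the rod-like files and 45 and 33 counts in the normal files. Its values were 81.7 and 63.3 RPM in rod-like files, against 71.0 and 50.7 RPM in normal files, again with overlap. The ratio was 1.19 (0.771 to 1.86). The scarcer bna-miR398a had 6 and 8 counts in rod-like files and 6 counts in each normal file, a ratio of 1.08 (0.310 to 3.88). Summed, the miR398 family had a ratio of 1.18 (0.784 to 1.78). The share of bna-miR398b in miR398 reads was 90.5% and 84.6% in rod-like files and 88.2% and 84.6% in normal files.

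The same difference can be read as shares of the copper miRNA reads, where a higher share of miR408 lowers those of the others by construction. The miR408 family held 90.0% and 91.8% of them in the rod-like files and 54.7% and 57.5% in the normal files. For miR398 the shares were 6.71% and 5.74% in rod-like files, against 34.0% and 26.7% in normal files. For miR397 they were 3.30% and 2.43% in rod-like files, against 11.3% and 15.8% in normal files. These shares need no scaling between libraries.

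The unequal change of the members was tested pair by pair with Fisher's exact test, two-sided, on mean counts rounded to whole numbers, with Benjamini-Hochberg adjustment over the 10 pairs. As earlier results of these data already showed the split, these tests are no independent support for it. The ratios of ratios are from the mean counts as they stand, and intervals and p-values from the rounded counts. All 6 pairs of a miR408 form with a miR397 or miR398 form differed. The change of bna-miR398b was 0.133 times that of bna-miR408a (0.0822 to 0.225; adjusted p = 6.9e-14), and the change of bna-miR397ab was 0.136 times that of bna-miR408a (0.0722 to 0.277; adjusted p = 5.4e-08). The largest adjusted p of the 6 was 0.00131, for bna-miR398a against bna-miR408a. None of the 4 pairs within miR408 or among the miR397 and miR398 forms passed the test; bna-miR397ab against bna-miR398b had a ratio of ratios of 1.02 (0.478 to 2.25; adjusted p = 1.00).

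**Figure D2:**
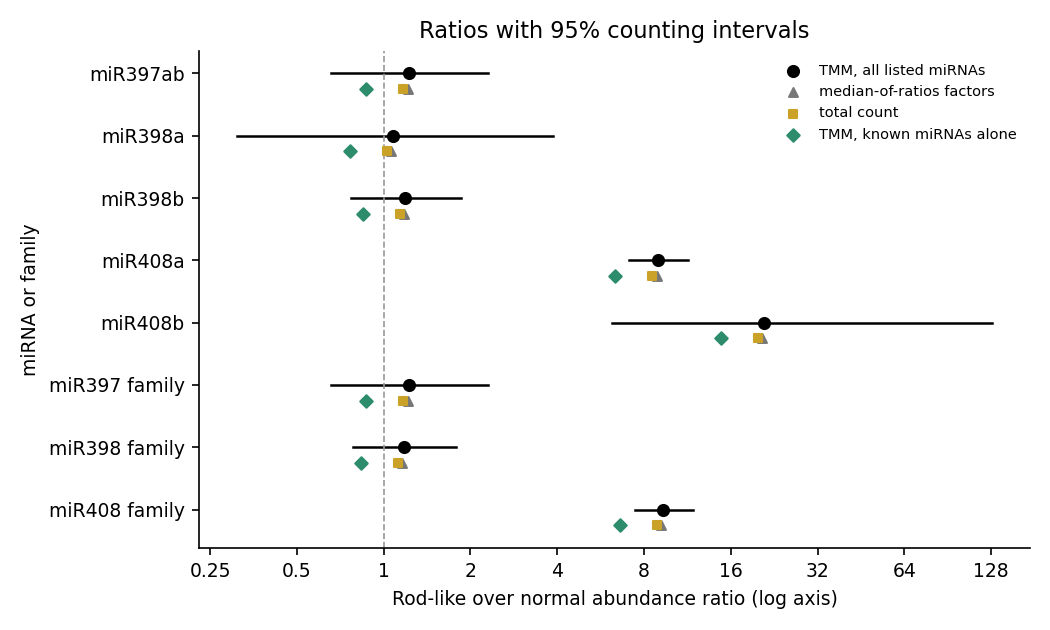
Ratios of rod-like over normal abundance for members and families on a log axis. Black points and bars give the ratio and its 95% counting interval under TMM scaling on all listed miRNAs, and small symbols the ratio under other scalings; the miR408 ratios stay above 4 under each scaling shown, and those of miR397 and miR398 lie near 1, below it when scaled on known miRNAs alone.

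Scaling bears on the size of all ratios and on the direction of the smaller ones. When TMM factors were computed on known miRNAs alone, all ratios moved by -0.50 on the log2 scale. The ratio of bna-miR408a was then 6.35, below its counting interval of 7.12 to 11.4, which does not cover the choice of scaling. That of bna-miR408b was 14.8, within its interval. Those of bna-miR397ab, bna-miR398b and bna-miR398a were 0.867, 0.847 and 0.763, so that no direction can be given for these 3.

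Set against all 401 listed miRNAs, with no filter on low counts, bna-miR408b ranked 1 and bna-miR408a ranked 2 by ratio, and bna-miR397ab, bna-miR398b and bna-miR398a ranked 113, 126 and 159. The next below the miR408 forms was the predicted novel_mir_225, at 8.47 (3.52 to 25.5), whose interval overlaps both of theirs. A ratio of at least 2 was found for 4.74% of the 401 and for 2 of the 5 copper miRNAs. Over the 391 miRNAs that passed a filter on low counts it was found for 4.60%, and over the 65 known ones among them for 16.9%. The filter kept bna-miR408b only through its rod-like counts and left out bna-miR398a, so no share or median is drawn from the 4 members that passed it. The median log2 ratio was 0.29 for all 5 members, 0.37 for the 74 known and -0.01 for all 401.

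edgeR's quasi-likelihood test on the 4 files, with Benjamini-Hochberg adjustment over the 391 miRNAs, called 65 miRNAs (16.6%) higher in the rod-like libraries and 45 (11.5%) lower. Among the 65 known miRNAs tested, 52.3% were called higher. With scaling by the total count the split was 55 higher and 58 lower. Both miR408 forms were among those called higher (adjusted p = 2.8e-65 for bna-miR408a and 9.6e-18 for bna-miR408b), and bna-miR397ab (0.576) and bna-miR398b (0.438) were not called. The low-count filter kept bna-miR408b only through its rod-like counts. Without this filter bna-miR408a and bna-miR408b were called higher (edgeR adjusted p = 2.1e-58 and 8.5e-17), and bna-miR398a was not called (0.938). Since the files of a plant type count as 1 sample, these p-values measure only the spread between files.

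**Figure D3:**
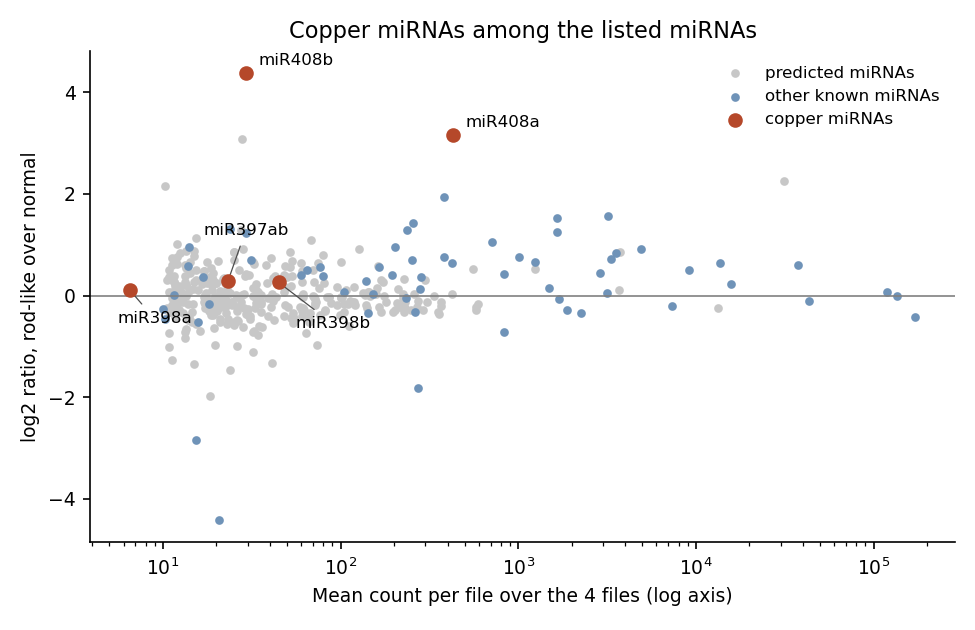
log2 ratio of rod-like over normal abundance against the mean count per file (log axis) for the 391 miRNAs that passed the low-count filter and bna-miR398a. Red points are the copper miRNAs; the miR408 forms lie at 3.16 and 4.38, above the other points, and the miR397 and miR398 forms lie between 0.11 and 0.29, within the cloud of miRNAs of like abundance.

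By summed counts of 38 known families, miR408 had the highest ratio, while miR397 ranked 23 and miR398 ranked 25. Neighbours in abundance were taken by the mean over the 4 files, which for both miR408 forms was set mostly by the rod-like counts. As these forms ranked 1 and 2 by ratio, their neighbours had smaller ratios by construction. Beside bna-miR408a, bna-miR6030, just above it, had 2.08 (1.85 to 2.33), and bna-miR162b, just below it, had 1.57 (1.36 to 1.81). Next to bna-miR408b, bna-miR6034 had a ratio of 1.64 (0.955 to 2.88) and bna-miR9409 one of 2.35 (1.30 to 4.43). The neighbours of bna-miR397ab lay on both sides of it, with 2.48 (1.28 to 5.11) for bna-miR9569 and 0.0467 (0.00547 to 0.180) for bna-miR319b. Next to bna-miR398b stood bna-miR400 at 1.33 (0.909 to 1.95) and again bna-miR6034 at 1.64 (0.955 to 2.88). Next to bna-miR398a stood bna-miR169g-l and bna-miR393a, both at 0.922.

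The known miRNAs with log2 ratios nearest to that of bna-miR408a were sought among 55 others with a mean of at least 20 counts. The measure was the difference of log2 ratios between 1 sample of each plant type. The 5 nearest were bna-miR2111c at a distance of 1.21, bna-miR408b at 1.22, bna-miR164a at 1.61, bna-miR5654 at 1.64 and bna-miR2111abd at 1.73. No known miRNA outside the family was thus nearer than a log2 distance of 1.21. The closest known miRNA was bna-miR2111c, known from phosphate starvation. It had 899 and 869 RPM in rod-like files and 251 and 206 RPM in normal files, a ratio of 3.87 (3.23 to 4.67). The form bna-miR408b met the count limit only through its rod-like files, with a mean of 56.5 counts against 2.5 in normal files. Predicted miRNAs were no candidates. Of these, novel_mir_225 was nearer, with a log2 ratio of 3.08 against 3.16 for bna-miR408a.

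Other nutrient-responsive miRNAs were taken as a list: miR395 of sulfate starvation, and miR399, miR778, miR827 and miR2111 of phosphate starvation. The list had 12 rows in 4 families, with none for miR778. Of 11 tested, edgeR called 6 higher and none lower, and 5 did not pass, a share of higher calls near the 52.3% of known miRNAs. The median log2 ratio of the 11 was 0.43, against 0.41 for the 65 known miRNAs tested. Scaled on known miRNAs alone, 4 of the list were called higher and 2 lower, against 22 higher and 23 lower among all known miRNAs tested. The most changed were bna-miR2111c, given above, bna-miR2111abd at 2.69 (2.20 to 3.31) and bna-miR827 at 2.39 (2.21 to 2.58). The ratio nearest to 1 was that of bna-miR399e, at 1.02 (0.810 to 1.29).

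The degradome records of the copper miRNAs were all in the rod-like library. The normal library had none, and none of the 5 target transcripts was listed there under any other miRNA name. In the rod-like library, too, each of these transcripts was listed once. Over known and predicted miRNAs, the rod-like library listed 148 names and the normal library 138. Both libraries together held bna-miR397a and 215 other names. Many names were thus listed in 1 library alone, so this split is not particular to the copper miRNAs. With 1 library of each plant type no test was made, and the lists hold only records with P-values up to 0.048 and scores up to 4.5, so a missing record does not show that cutting was absent. Neither miR408 nor miR857 had a record in either library, although miR408 was the most abundant copper miRNA in the small RNA files. The rod-like degradome sample is numbered 3 in the labels and the rod-like small RNA samples 1 and 2, so they may come from different plants.

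For miR397, the only record was that of bna-miR397a with BnaA10g25170D, with a cut listed at position 1204 of the transcript. It was in category 0, which is taken here as the strongest evidence, since the files do not define the categories. Its score was 4, where lower is taken as a closer match, and its P-value of 0.048 was the highest in the list, which 22 records had. Category 0 held 54.2% of all records in this library and 89.6% of the 307 records under named miRNAs. Of 300 records in category 0, 36 had a score of 4 or more, and within the category this record alone had the highest P-value. In the alignment 18 bases were paired and 2 were G-U wobbles, at positions 5 and 6 of the miRNA. There were mismatches at positions 14 and 22, and 1 extra base in the target after position 17. In the site printed above, 5 of the 7 seed positions were thus Watson-Crick pairs.

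The 4 records of bol-miR398a-5p were all in category 3, taken as the weakest evidence. Category 3 held 13.9% of the records of the rod-like library, and among the 37 named miRNAs there this name alone had records in it, 4 of 307. The P-value of the target caller was 0.002 in all 4, although scores ran from 2 to 4.5. One shared value was common: of 77 combinations of miRNA name and category with several records, 67 had a single P-value. The P-values therefore do not rank these 4 sites.

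The sites of bol-miR398a-5p fell into a matching pair and 2 others. BnaA04g26250D and BnaC04g50250D had the same site, base for base, at the same position, 177, and the same score of 2. In both, 19 bases were paired, position 2 of the miRNA was mismatched and its base at position 6 was left unpaired. As these records share a small RNA and a site sequence, they are not independent of each other. A score of 2 or less was found for 38.1% of all records of the library, but for only 11 of its 77 records in category 3.

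The other sites were on BnaC09g49660D, at position 611 with a score of 4, and on BnaC09g42460D, at position 1263 with a score of 4.5, the highest listed. The first had 15 paired bases, 4 wobbles and mismatches at positions 5 and 15. The second had 16 paired bases, 1 wobble and mismatches at positions 1, 5, 15 and 17. Opposite the 21 positions of the small RNA these sites had 15 bases in common, and each shared 14 with the sites on BnaA04g26250D and BnaC04g50250D. All 4 sites were paired without a gap at positions 8 to 14, the stretch around the usual cutting point, and the departures from pairing lay at positions 1 to 7 and from 15 on. Seed positions with Watson-Crick pairs numbered 5 of 7 for the matching pair, 4 for BnaC09g49660D and 6 for BnaC09g42460D. The records give the cut position but not where the site starts on the transcript, so whether the cut fell opposite positions 10 and 11 was not computed.

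**Figure D4:**
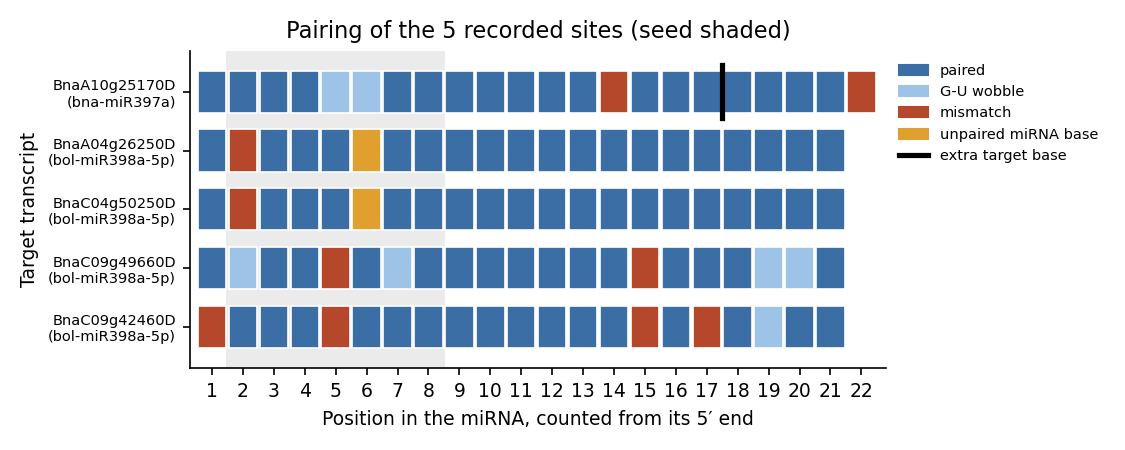
Pairing at each position of the small RNA, counted from its 5′ end, for the 5 recorded sites, with the seed shaded. Blue marks paired bases, light blue wobbles, red mismatches, orange an unpaired base of the small RNA and a black bar an extra base of the target; all 5 sites are paired at positions 10 and 11, and none is paired at all 7 seed positions.

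**Figure D5:**
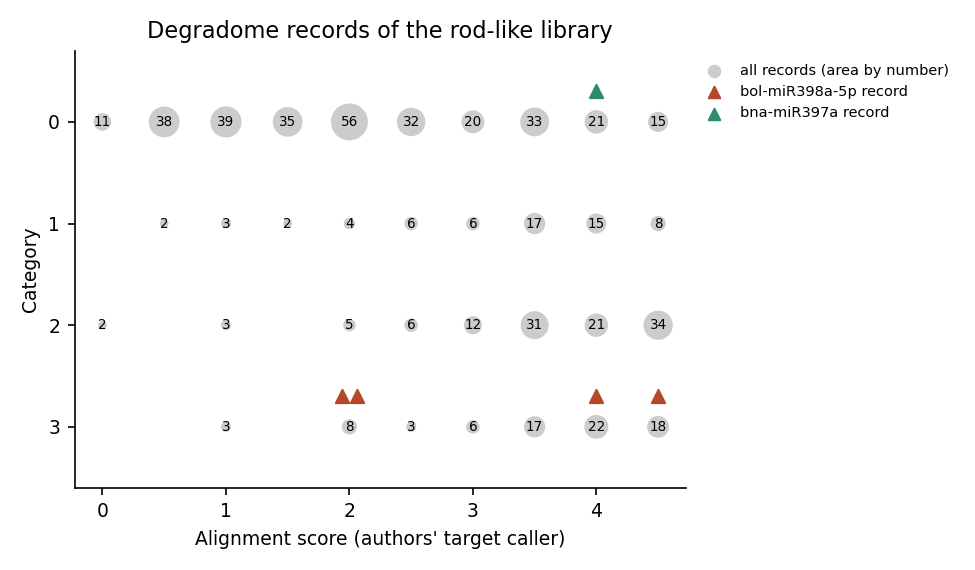
Alignment score against category for the 554 degradome records of the rod-like library; grey circles give the number of records and triangles the copper miRNA records. The bna-miR397a record lies in category 0 with a score of 4, and the 4 bol-miR398a-5p records lie in category 3 with scores of 2 to 4.5.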

How the data were processed

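Small RNA abundance is given as whole-number counts for each known and predicted miRNA as deposited by the authors, from gel-cut RNA of 18 to 30 nt, per the labels' protocols. No source used here gives the mapper, miRNA annotation, counting rule, genome build or target caller. The degradome files hold, as deposited, a score, position, category, P-value and alignment for each record. The pairing marks recomputed from the alignments matched those in the files.

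Counts were scaled with edgeR 4.0.16 in R 4.3.3 (TMM after filterByExpr), and ratios of mean counts were given conditional intervals computed from those means. Intervals cover counting error alone, with no spread between plants. Reads amplified by PCR are not independent molecules, which the intervals do not take into account. The edgeR step was tested on simulated data. DESeq2 1.42.0 was an alternative, and Python 3.11.15 with pandas 2.3.3 and SciPy 1.17.1 did the remaining steps. Named besides the members were the 5 known miRNAs nearest in log2 ratio to bna-miR408a, the neighbours in abundance and the extremes of the nutrient list. The members and lists were chosen with earlier results of these data known. Alternatives covered scaling, filter, test, replicate block, each file left out, and the definition of a degradome pair.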

Additional observations from a re-analysis of the deposited data

How the results depend on the processing

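The ratios of the 5 members and 3 families stayed within their counting intervals under median-of-ratios factors, under the total count, with novel_mir_1 left out of the total (chosen after seeing the data) and without each file. With scaling on known miRNAs alone bna-miR408a was at 6.35 and the miR408 family at 6.61, both below their counting intervals. The edgeR log2 fold changes of bna-miR397ab and bna-miR398b then turned to -0.21 and -0.24, not called in either case. Both miR408 forms were called higher and bna-miR397ab and bna-miR398b were not called under every setting run. Without 1 file the ratio of bna-miR408b ran from 17.5 to 26.4, that of bna-miR408a from 8.91 to 9.20, that of bna-miR397ab from 1.02 to 1.45 and that of bna-miR398b from 1.04 to 1.43. The files of a plant type did not differ beyond counting noise, so leaving 1 out is no independent check of these ratios or of the calls. The 6 called pairs of members stayed called and the other 4 uncalled without each file.

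Calls over all miRNAs, 110 in the main test, numbered 45 on known miRNAs alone (22 higher, 23 lower), where fewer were tested, 57 with DESeq2's Wald test (38 higher, 19 lower), and 71 to 87 without 1 file (48 to 57 higher, 23 to 34 lower). All calls numbered 71 without normal replicate 1, and lower calls 23, 25 and 29 without normal replicate 1, normal replicate 2 and rod-like replicate 2, against 45. Fitted with a replicate block they numbered 53 (39 higher, 14 lower). Deviations of files with the same number had a correlation of -0.09 over 109 miRNAs. Files of a plant type did not differ beyond counting noise, so this value cannot tell whether the numbers pair the files. The cause of these shifts was not tested. Of the 5 degradome pairs, 1 remained with categories 0 and 1 alone, and all 5 under both other definitions. Depth limits bna-miR398a, with 6 to 8 counts, and bna-miR408b, with 2 and 3 counts in normal files.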
